A study of Arabidopsis thaliana with 10 samples.

Results

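The transcripts of 10 activators of *FLC*, the MADS-box gene that holds back flowering in *Arabidopsis thaliana*, were followed in wild-type seedlings and in mutants in which *FLC* is no longer kept low. The set held *FRI*, *FRL1* and *FRL2*, which encode FRIGIDA and FRIGIDA-like proteins, their partners *FES1*, *SUF4* and *FLX*, the PAF1 complex genes *ELF7*, *VIP6* and *VIP4*, and *PIE1*, a chromatin remodeller. The genes were chosen by their identifiers, not by a measured value, though with earlier results of these data known. All 10 were present among the 32548 genes of the tables. None of the 10 passed an adjusted *p* of 0.05 against Col-0 in any of the 4 mutants, in fits that called at most 0.00997% of all genes, and the fitted log2 fold changes (log2FC) lay between -0.21 and 0.25. By replicate number 3 members passed, beside 29.2% of all genes, and of these *ELF7* kept its call in every alternative while *VIP4* and *PIE1* did not.

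Gene expression was measured by RNA-seq in 10 libraries, 2 independent replicates for each of 5 genotypes. The controls were Col-0 plants, the single mutants *fld* and *ld* carried T-DNA insertions, and *sdg26 aprf1* was a double T-DNA mutant with the *aprf1-9* allele. The *efl2 efl4* double mutant was obtained by crossing lines made with CRISPR/Cas9. Each mutant genotype stood for 1 line or 1 combination of alleles, and whole seedlings were taken after 10 days of growth on MS plates at 23°C with 16 h of light and 8 h of dark. The disrupted genes encode components of the autonomous flowering pathway, which keeps *FLC* low without a cold period. All 5 genotypes had the Col-0 background, so the controls as well as the mutants carried the loss-of-function *FRI* allele of that accession.

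FRIGIDA acts as a scaffold in winter-annual plants. It brings FRL1, FES1, SUF4 and FLX together at the *FLC* promoter, where SUF4 is the DNA-binding partner, and the assembled complex raises *FLC* transcription until winter cold silences the gene. The PAF1 complex travels with RNA polymerase II and is needed for active histone marks over *FLC*, and PIE1 is the ATPase of the SWR1 complex, which exchanges histone H2A for the variant H2A.Z. Loss of function in genes of these groups lowers *FLC* and brings flowering forward.

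The *FRI* reading frame of the reference, which is itself Col-0, is shown because every library shares this allele. The gene lies on chromosome 4 from 268901 to 271503 on the plus strand of TAIR10.1, and its annotated coding sequence has 945 bases, or 314 residues. The coding sequence ends 6 bases into exon 2, exon 3 holds 0 coding bases, and 1176 of the 2121 exon bases lie outside the coding sequence. The last 66 coding bases, spliced across exons 1 and 2 (chr4:269905-270363, plus strand), end in the stop codon that is set in capitals.
FRI: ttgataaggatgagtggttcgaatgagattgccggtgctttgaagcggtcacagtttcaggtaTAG
A read count for *FRI* in these libraries therefore measures the transcript of the truncated allele, most of whose exon length does not code for protein.

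**Figure D1:**
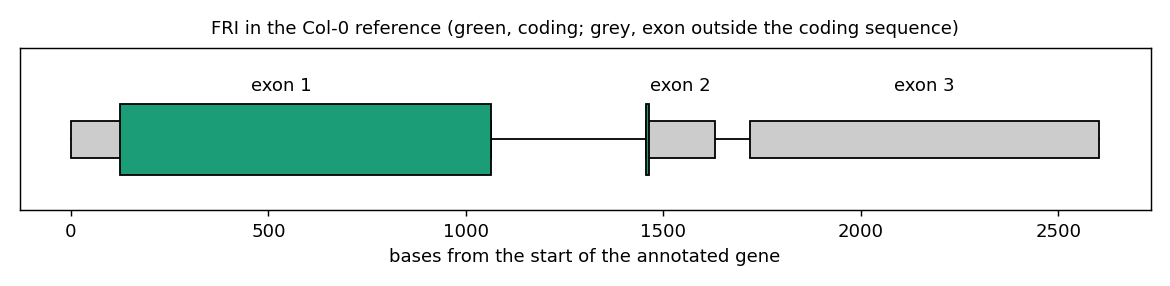
Exons of FRI in the Col-0 reference, drawn to scale along the transcribed strand, with bases from the annotated start of the gene on the horizontal axis. Green boxes are coding and grey boxes are exon outside the coding sequence. Coding bases fill most of exon 1, 6 bases of exon 2 and none of exon 3.

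The zinc fingers of *FES1* and *SUF4* are shown because they are the motifs by which both genes are annotated. FES1 has a finger with 3 cysteines and 1 histidine, found here at residues 102 to 120, and SUF4 has a pair of fingers with 2 cysteines and 2 histidines each, at residues 14 to 35 and 38 to 59. Capitals mark the codons of the cysteines and histidines that define each motif, and other codons of these residues are in lower case. All 3 stretches are on the minus strand of TAIR10.1, at chr2:14313783-14313839 for *FES1* and at chr1:11043489-11043554 and chr1:11043417-11043482 for *SUF4*.
FES1: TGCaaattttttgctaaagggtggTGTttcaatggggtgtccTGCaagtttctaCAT
SUF4 finger 1: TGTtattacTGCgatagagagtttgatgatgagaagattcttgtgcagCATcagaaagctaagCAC
SUF4 finger 2: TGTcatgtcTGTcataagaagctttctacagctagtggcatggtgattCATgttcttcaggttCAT

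Each library held 20455413 to 20768023 reads on genes. The values per library given below are whole reads, recovered from the deposited normalized reads and brought to 1 common scale over the 10 libraries. The disrupted genes that were checked, which did not include *APRF1*, were lower in the libraries labelled as their mutants than in the others, by unlike amounts. *FLD* had 40.0 to 42.7 reads in *fld* and 422.3 to 495.2 in the other libraries, *LD* had 389.5 to 432.0 in *ld* against 643.3 to 764.7, and *SDG26* had 50.3 to 54.6 in *sdg26 aprf1* against 264.9 to 350.5. The transcripts of *ELF4-L2* and *ELF4-L4*, the reference names of *EFL2* and *EFL4*, were at 111.5 to 146.3 and at 90.5 to 111.5 reads in *efl2 efl4*, below the 160.1 to 220.5 and 115.9 to 148.2 of the other libraries. For the labelled tissue, all 4 green tissue genes and all 5 root genes had reads in every library, whereas the 4 flower genes together had 3.1 to 21.8 reads and the 3 meristem genes 9.9 to 29.3, with *WUS* at 0 in all 10 libraries. The 3 seed storage genes summed to 2.0 to 7.9 reads in 9 libraries and to 122.4 in the second replicate of *efl2 efl4*.

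*FLC*, the shared target of the set, gave the scale against which the activators can be read. It had 4.0 and 4.0 reads in Col-0, 622.2 and 609.4 in *fld*, 493.4 and 521.7 in *ld*, 166.1 and 143.0 in *sdg26 aprf1*, and 370.5 and 388.0 in *efl2 efl4*. No mutant library overlapped the controls, and no pair of genotypes overlapped. The log2FC was 4.96 in *sdg26 aprf1*, 6.25 in *efl2 efl4*, 6.67 in *ld* and 6.95 in *fld*, computed on log2(normalized reads + 1), where the pseudocount makes the change of so low a gene look smaller. The adjusted *p* in limma was 0.0982, 0.0122, 0.0109 and 0.00751 in that order, so *sdg26 aprf1* did not pass. In *sdg26 aprf1* the adjusted *p* of *FLC* was 0.0338 in limma with the replicate number as a block, 2.29e-06 in limma on all 10 libraries and 2.01e-14 in DESeq2. Other alternatives did not pass in *sdg26 aprf1*. The adjusted *p* was 0.0858 to 0.316 in limma with other pseudocounts, no filter or upper-quartile scaling, and 0.107 in edgeR. Without 1 library the log2FC in *sdg26 aprf1* was 4.86 to 5.07. The call in *efl2 efl4* was lost without the filter on low values (adjusted *p* of 0.0735 in limma), and the calls in *fld*, *ld* and *efl2 efl4* were lost without either mutant library (0.125 to 0.376), with log2FC of 6.22 to 6.97.

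**Figure D2:**
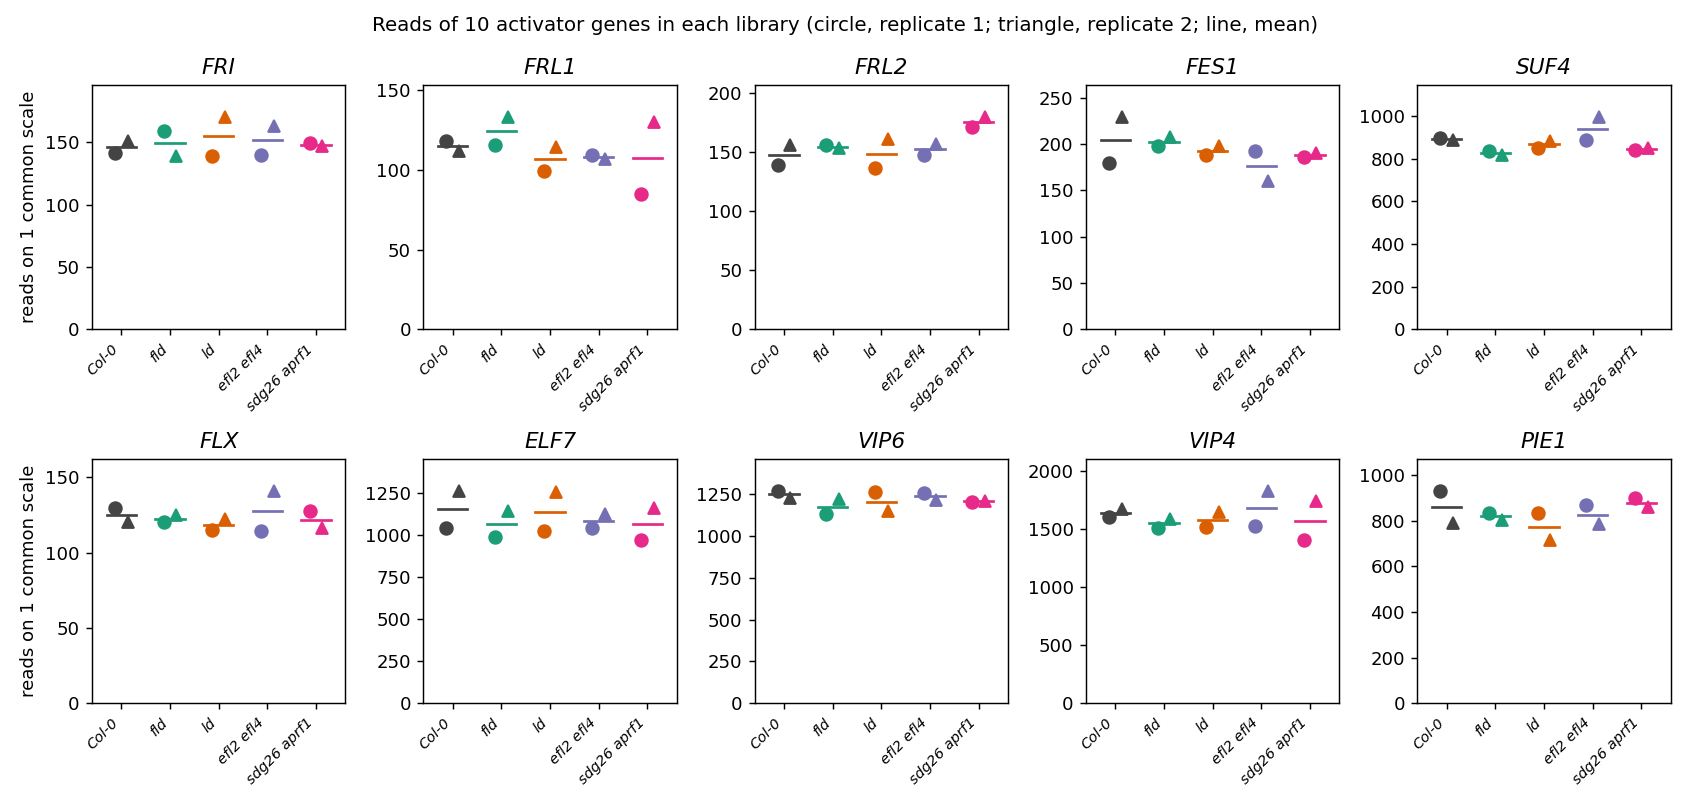
Reads on 1 common scale (vertical axes, from 0) of the 10 activator genes in the 10 libraries, by genotype. Circles are replicate 1, triangles replicate 2 and lines the mean of the 2. Genotypes lie at similar heights in every panel, and in ELF7 and VIP4 the triangle is above the circle in all 5 genotypes, in PIE1 below it.

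*FRI* (AT4G00650) had similar mean reads in all 5 genotypes. Its reads were 140.9 and 151.1 in Col-0, 159.0 and 139.1 in *fld*, 139.2 and 170.2 in *ld*, 149.0 and 147.0 in *sdg26 aprf1*, and 139.4 and 163.2 in *efl2 efl4*. The lowest and the highest library of the gene were replicates of *fld* and *ld*, and for 0 of the 10 pairs of genotypes did the libraries stand apart. The means ran from 146.0 ± 7.22 (SD, n = 2) in Col-0 to 154.7 ± 21.9 (SD, n = 2) in *ld*, a ratio of 1.06. The log2FC of *FRI* in limma was 0.02 to 0.07. Its intervals reached from -0.36 in *efl2 efl4* to 0.50 in *ld*, so smaller differences within these bounds were not excluded. Of the 50-base windows on the *FRI* exons 96.5% were unique in the genome, against 100% for the other 9 genes. An annotated antisense RNA overlaps 195 of the exon bases and had 0 reads in every library. Reads that lie on 2 genes may have been left uncounted, so the 0 does not show that this RNA was absent.

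*FRL1* and *FRL2* encode FRIGIDA-like proteins. *FRL1* (AT5G16320, chromosome 5, 5344495 to 5346106) had 117.9 and 111.6 reads in Col-0, 115.3 and 133.1 in *fld*, 98.9 and 114.1 in *ld*, 84.6 and 130.1 in *sdg26 aprf1*, and 109.5 and 106.5 in *efl2 efl4*. The lowest value and the second highest belonged to the replicates of *sdg26 aprf1*, and this genotype gave the widest interval of the 40 comparisons of a member with Col-0, from -0.75 to 0.50 around a log2FC of -0.13. Only in *efl2 efl4* did both libraries lie below both controls. Without the second *sdg26 aprf1* library the log2FC of *FRL1* was -0.44, with an adjusted *p* of 1.0.

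*FRL2* (AT1G31814, chromosome 1, 11412392 to 11414502) was the only member with a mutant above the controls in all libraries. It had 138.9 and 156.1 reads in Col-0 and 171.1 and 179.8 in *sdg26 aprf1*, while *fld* had 156.0 and 153.1, *ld* 136.2 and 161.0, and *efl2 efl4* 147.4 and 157.2. The 2 *sdg26 aprf1* libraries were the highest of the 10, and those of the other 3 mutants lay among or beside the controls. The log2FC in *sdg26 aprf1* was 0.25, the largest of the set, with a standard error of 0.14 and an interval of -0.11 to 0.61. Its unadjusted *P* in limma was 0.136 and the adjusted *p* 1.0, so the gene did not pass.

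*FES1* (AT2G33835, chromosome 2, 14311712 to 14314714), the CCCH zinc finger partner, had the widest gap between the controls, 0.36 on the log2 scale. It had 178.9 and 229.2 reads in Col-0, 197.8 and 207.2 in *fld*, 187.7 and 197.7 in *ld*, 186.3 and 190.7 in *sdg26 aprf1*, and 192.2 and 160.2 in *efl2 efl4*. The second control was the highest library, and every mutant had at least 1 library above the other control. The mean was lowest in *efl2 efl4*, with a log2FC of -0.21 and an interval of -0.68 to 0.26, and the lower of its libraries was the one with more reads on seed storage genes. Whether the composition of that library bears on *FES1* was not tested.

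*SUF4* (AT1G30970, chromosome 1, 11040250 to 11043773) had the most ordered levels of the set. Its reads were 896.6 and 886.1 in Col-0, 833.9 and 817.6 in *fld*, 848.5 and 884.4 in *ld*, 838.6 and 848.2 in *sdg26 aprf1*, and 885.3 and 996.0 in *efl2 efl4*. The libraries stood apart in 9 of the 10 pairs of genotypes, all except Col-0 with *efl2 efl4*, the most of any member. Over all genes 30.3% of pairs stood apart on average. The share of genes that reach 9 of 10 was not computed, and the pairs share libraries. Some pairs were apart by very little, such as 848.5 in *ld* and 848.2 in *sdg26 aprf1*. Before scaling, the reads of *ld* (841 and 868) and *sdg26 aprf1* (833 and 854) overlapped. On the common scale *fld*, *ld* and *sdg26 aprf1* each lay below both controls. The distances were small: the highest mean exceeded the lowest 1.14 times, and the log2FC was 0.07 in *efl2 efl4*, -0.08 in *sdg26 aprf1*, -0.05 in *ld* and -0.11 in *fld*, with every interval across 0. The F test over the 5 genotypes in edgeR gave a *P* of 0.26 and an adjusted *p* of 1.0. A snoRNA annotated within 146 of the 2170 exon bases had 0 reads in every library. Here too reads on both genes may have been left uncounted, so the 0 does not show that the snoRNA was absent.

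*FLX* (AT2G30120, chromosome 2, 12860147 to 12861971), which binds FRIGIDA and has a coiled coil, was level across genotypes, with 0 of 10 pairs standing apart. It ranged from 114.5 to 141.3 reads, with a median of 121.4, and both ends came from *efl2 efl4*. Its mean was 125.2 ± 6.66 (SD, n = 2) in Col-0, and the log2FC of the 4 mutants was between -0.08 and 0.02.

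*VIP6* (AT2G06210, chromosome 2, 2428903 to 2436687; *ELF8* in the reference annotation), the homologue of yeast CTR9, was the steadiest of the set, with a coefficient of variation of 3.83% over the 10 libraries. The highest was 12.6%, in *FRL1*, beside a median of 10.9% over all genes tested, which include genes with a mean of 10 reads. Counting error is larger at fewer reads. *FRL1* had 84 to 133 recovered reads in a library and *VIP6* 1126 to 1271, so the coefficients are not set at like depth. *VIP6* had 1270.4 and 1225.9 reads in Col-0, 1128.1 and 1219.9 in *fld*, 1261.2 and 1147.3 in *ld*, 1202.1 and 1208.7 in *sdg26 aprf1*, and 1256.8 and 1215.9 in *efl2 efl4*. Both libraries of *fld* and of *sdg26 aprf1* lay below the controls, by a log2FC of -0.09 and -0.05.

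*ELF7* (AT1G79730, chromosome 1, 30000538 to 30004083), which encodes the plant PAF1 protein, had 1046.5 and 1267.4 reads in Col-0, 992.9 and 1142.8 in *fld*, 1026.1 and 1256.4 in *ld*, 973.5 and 1162.0 in *sdg26 aprf1*, and 1045.7 and 1129.3 in *efl2 efl4*. The 5 libraries of replicate 2 were above the 5 of replicate 1, and no pair of genotypes stood apart. *VIP4* (AT5G61150, chromosome 5, 24603634 to 24607725), the homologue of yeast LEO1, had 1598.3 and 1669.5 reads in Col-0, 1508.8 and 1587.2 in *fld*, 1519.5 and 1640.5 in *ld*, 1399.4 and 1741.0 in *sdg26 aprf1*, and 1523.7 and 1828.8 in *efl2 efl4*. Only *fld* lay below both controls in *VIP4*, with a log2FC of -0.08 and an interval of -0.29 to 0.13.

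*PIE1* (AT3G12810, chromosome 3, 4065042 to 4074194), the ATPase gene of SWR1, had 932.6 and 790.3 reads in Col-0, 835.9 and 804.6 in *fld*, 835.4 and 714.3 in *ld*, 898.0 and 860.1 in *sdg26 aprf1*, and 867.4 and 784.0 in *efl2 efl4*. Replicate 1 was above replicate 2 in all 5 genotypes, and the wide gap between the controls spanned 6 of the 8 mutant libraries. The second libraries of *ld* and *efl2 efl4* lay below both controls. The log2FC in *ld* was -0.16, with an interval of -0.51 to 0.20 and a *P* of 0.306. In the fit blocked by replicate number the *P* of *PIE1* in *ld* was 0.0385, the only unadjusted *P* under 0.05 of a member against Col-0 in any fit, and the adjusted *p* was 0.268. Of its exon bases 340 are shared with a gene on the other strand, which had 59 to 178 reads.

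Per exon length, the PAF1 complex genes and *SUF4* had the highest levels. *VIP4* stood highest with a mean of 700.3 reads per 1000 exon bases, followed by *ELF7* with 528.6, *SUF4* with 402.5, *VIP6* with 339.1 and *PIE1* with 119.5. *FES1* followed with 82.2, *FRL2* with 73.8, *FLX* with 70.9, *FRI* with 70.6 and *FRL1* with 69.6. The ranges over the 10 libraries did not overlap between neighbours from *VIP4* down to *FES1*. From *FES1* down to *FRL1* every neighbour overlapped, so their order was within the spread, and the top of the order exceeded the bottom 10.1 times. *FRI*, with its truncated reading frame, was at the level of *FRL1* and *FRL2*, whose annotated frames have 470 and 473 residues.

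**Figure D3:**
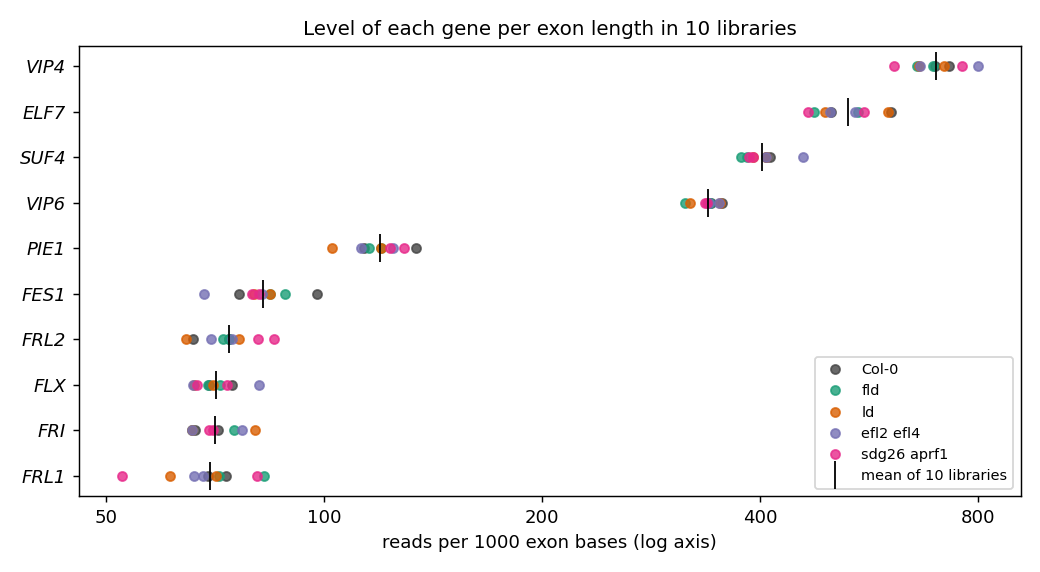
Reads per 1000 exon bases of each gene in the 10 libraries (horizontal log axis), ordered by the mean. Points are libraries coloured by genotype and the bar is the mean. VIP4, ELF7, SUF4 and VIP6 lie between 315 and 800, and FRI, FRL1, FRL2, FES1 and FLX between 52.5 and 97.7.

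Each mutant was then compared with the 2 Col-0 libraries of its own table by limma, in which all 10 members passed the filter on low values. The same controls entered all 4 comparisons, so these are not independent. At an adjusted *p* under 0.05, 0 of 10 members were called in each mutant, where the share of all genes called was 0% in *sdg26 aprf1*, 0.00499% in *efl2 efl4*, 0.00499% in *ld* and 0.00997% in *fld*. At an unadjusted *P* under 0.05, 0 of 10 members were again called in each, against 4.56%, 4.69%, 4.26% and 3.79% of all genes in the same order. The study set thresholds of an absolute log2FC of at least 1 and a *P* under 0.01 on values from edgeR. Put here on the values from limma, they called 0 members and 0.498%, 0.434%, 0.504% and 0.394% of all genes, so these shares are not the study's. With shares this low, a count of 0 of 10 by any of these rules was near the background. The quasi-likelihood test of edgeR and DESeq2 on recovered reads also called 0 members in every mutant, at an adjusted *p* and at an unadjusted *P* under 0.05.

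Over the 40 comparisons the lowest bound was a fold of 0.594 (*FRL1* in *sdg26 aprf1*) and the highest 1.53 (*FRL2* in *sdg26 aprf1*), so every 95% interval, each taken on its own, lay inside a 2-fold difference. In *fld* the bounds ran from 0.72 to 1.42 fold, in *ld* from 0.695 to 1.41 and in *efl2 efl4* from 0.622 to 1.38. The median log2FC of the 10 members was -0.06 in *sdg26 aprf1*, 0.00 in *efl2 efl4*, -0.06 in *ld* and -0.05 in *fld*, beside a median of 0.00 over all genes in each.

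**Figure D4:**
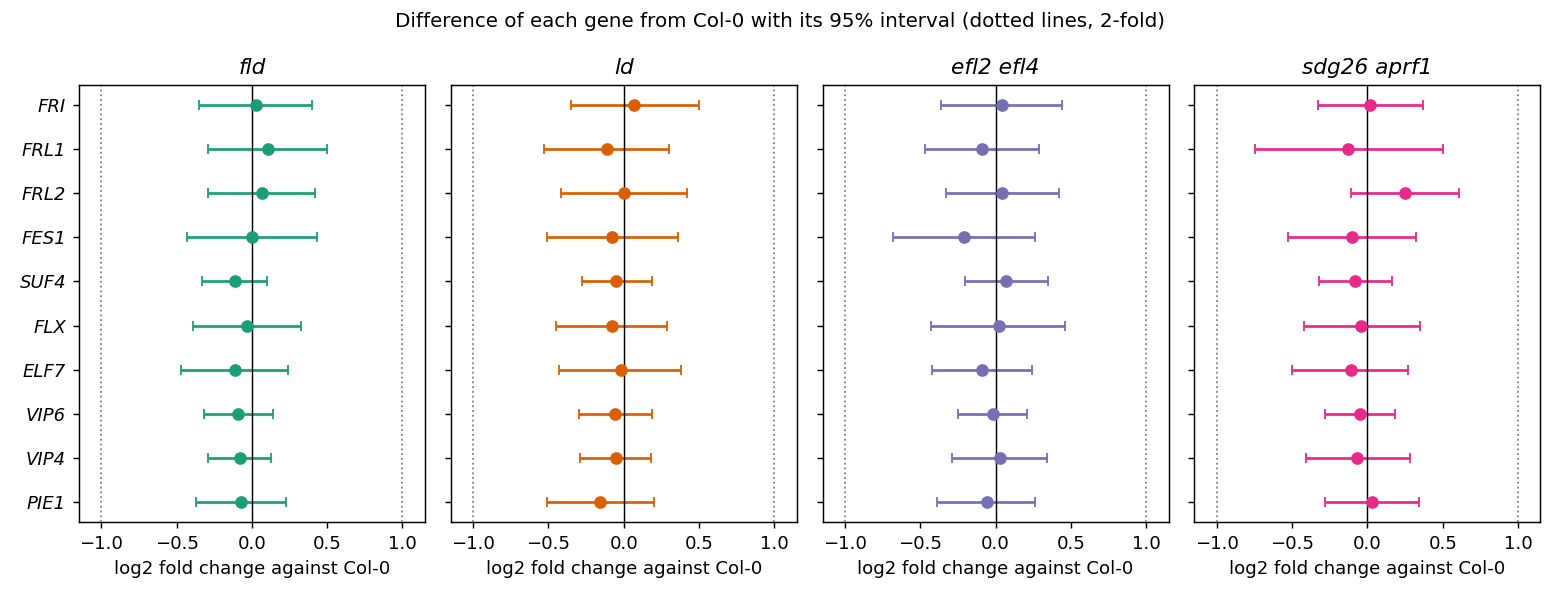
Log2 fold change of each member against Col-0 (horizontal axis) in the 4 mutants, with the 95% interval from limma. Dotted lines mark a 2-fold difference. All 40 intervals cross 0 and none reaches a dotted line, with bounds from -0.75 to 0.61.

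Both mutant libraries lay above both controls for 0 members in *fld*, *ld* and *efl2 efl4* and for 1 (*FRL2*) in *sdg26 aprf1*, against 14.6%, 14.9%, 16.1% and 14.8% of all genes. They lay below both controls for 3 members in *fld* (*SUF4*, *VIP6* and *VIP4*), 1 in *ld* (*SUF4*), 1 in *efl2 efl4* (*FRL1*) and 2 in *sdg26 aprf1* (*SUF4* and *VIP6*), against 14.7%, 15.2%, 15.5% and 15.4%. Over all pairs of genotypes the libraries stood apart in 25 of 100 cases among the members and in 30.3% of cases among all 20057 genes. In bulk seedlings, fewer cells of a type and less RNA per cell cannot be told apart.

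Tests over all 10 libraries gave no call either. The F test of the 5 genotypes in edgeR called 0 of 10 members and 0.249% of all genes, and the members' lowest *P* was 0.26, with 6.9% of all genes under 0.05. The mean of the 4 mutants against Col-0 called 0 members and 0.175% of all genes, with log2FC from -0.10 (*FES1*) to 0.09 (*FRL2*), bounds of 0.75 to 1.26 fold, and 0 members against 6.64% of all genes at a *P* under 0.05. The differences among the mutants, tested after the other results were known, called 0 members and 0.165% of all genes, with a lowest *P* of 0.185 (*SUF4*), and 6.13% of all genes were under 0.05. DESeq2 called 0 members in the first and the second of these tests.

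The replicate numbers paired the libraries, and the fit with the replicate number as a block raised the calls among all genes. It called 0 of 10 members in every comparison, while the share of all genes called was 0.0399% in *sdg26 aprf1*, 2.86% in *efl2 efl4*, 3.38% in *ld*, 2.25% in *fld*, 4.06% over the 5 genotypes, 1.97% for the mean of the mutants and 2.7% among the mutants. With shares this low, a count of 0 of 10 members was near the background here too. The lowest blocked adjusted *p* of a member was 0.268.

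The replicate number itself went with 3 members. In a fit of genotype and replicate number in edgeR, *ELF7* rose in replicate 2 by a log2FC of 0.23 (interval 0.14 to 0.32, adjusted *p* = 0.00235) and *VIP4* by 0.17 (interval 0.06 to 0.27, adjusted *p* = 0.0252). *PIE1* fell by 0.14 (interval -0.24 to -0.04, adjusted *p* = 0.0372). *ELF7* and *VIP4* were higher and *PIE1* lower in replicate 2 in 5 of 5 genotypes. Of all genes 29.2% passed this test, 17.3% were higher in replicate 2 in all 5 genotypes and 19.1% lower, so 3 of 10 members was close to the background. The difference of *ELF7* on the log2 scale was 0.28 in Col-0, 0.26 in *sdg26 aprf1*, 0.11 in *efl2 efl4*, 0.29 in *ld* and 0.20 in *fld*, whereas its log2FC against Col-0 was between -0.11 and -0.02. What set the replicates apart is not given in the labels.

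The call for *ELF7* held in every alternative run. DESeq2 called *ELF7* alone, with an adjusted *p* of 0.0631 for *VIP4* and 0.206 for *PIE1*. *VIP4* did not pass without either library of *ld*, *efl2 efl4* or *sdg26 aprf1* (adjusted *p* 0.056 to 0.095), and *PIE1* did not pass without either library of Col-0, *fld*, *ld* or *efl2 efl4* (0.0511 to 0.136). The other 7 members had adjusted *p* from 0.248 to 0.76. *FRL1* had the widest interval among them, from -0.06 to 0.42, and its replicates differed by 0.62 on the log2 scale in *sdg26 aprf1*.

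**Figure D5:**
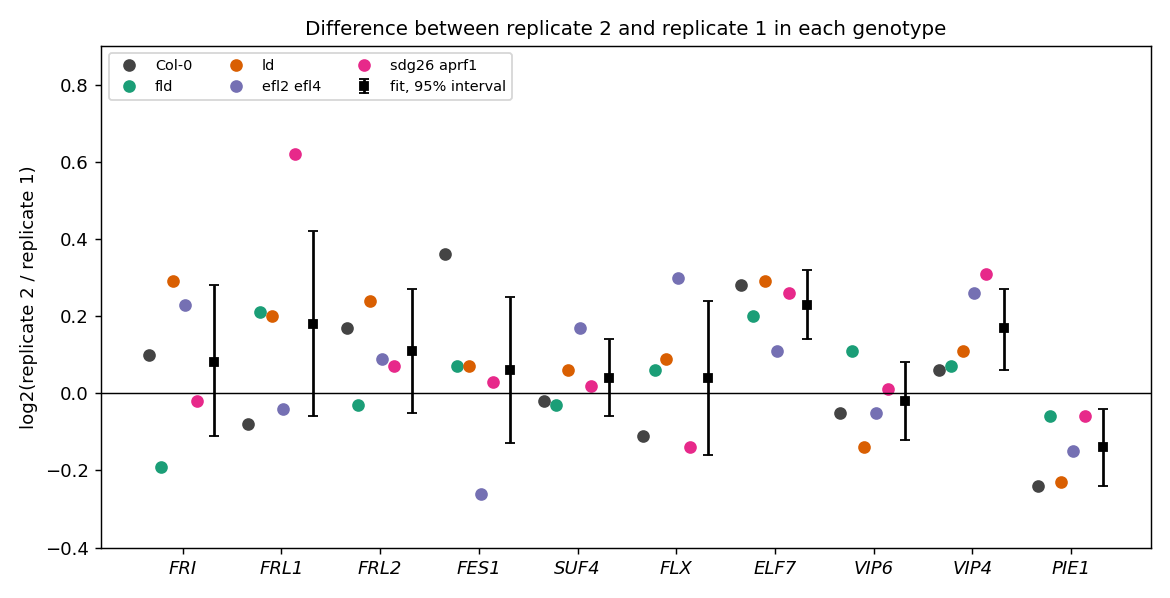
Log2 ratio of replicate 2 to replicate 1 (vertical axis) for each member in the 5 genotypes (coloured points), with the fitted difference and its 95% interval (black squares). The 5 points of ELF7 and of VIP4 lie above 0 and those of PIE1 below it; the 5 points of the other members fall on both sides.

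Relatives and partners of the members were counted in the same fits. Of 8 further FRIGIDA-like and FLX-like genes, 3 further PAF1 complex genes, 12 genes of SWR1 and H2A.Z and 17 other activators of *FLC*, all 40 were tested and 0 passed an adjusted *p* of 0.05 in limma in any mutant, in either direction. The median log2FC of the 8 relatives was 0.13, 0.02, 0.07 and 0.08 in *fld*, *ld*, *efl2 efl4* and *sdg26 aprf1*, that of the SWR1 and H2A.Z genes 0.08, 0.04, 0.04 and 0.04, and that of the other activators lay between -0.02 and 0.01. The PAF1 complex genes had medians between -0.04 and 0.08. The median of all genes was 0.00 in each comparison.

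Among the relatives, AT4G14900, annotated as a FRIGIDA-like protein, came closest to a call. It had 1125.5 and 1226.9 reads in Col-0, 1382.6 and 1409.0 in *fld*, 1360.1 and 1544.7 in *ld*, 1215.2 and 1216.6 in *sdg26 aprf1*, and 1349.4 and 1509.4 in *efl2 efl4*. The libraries of *fld*, *ld* and *efl2 efl4* were all above the controls and those of *sdg26 aprf1* were between them. Its log2FC in limma was 0.25 in *fld* and 0.30 in *ld*, with unadjusted *P* of 0.0396 and 0.0442. With the replicate block the adjusted *p* of AT4G14900 in *ld* was 0.0268, a call that limma without the block did not make. AT1G55170, a relative of *FLX*, had 166.9 and 145.2 reads in Col-0 against 194.3 and 220.5 in *sdg26 aprf1*, with a log2FC of 0.41 and a *P* of 0.0427.

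Among the other activators, *ATXR7*, a histone H3 lysine methyltransferase gene, had 613.7 and 600.6 reads in Col-0 against 499.0 and 521.4 in *fld*, with a log2FC of -0.25 and a *P* of 0.0438. *ABH1*, the large subunit gene of the nuclear cap-binding complex, had 685.6 and 622.7 reads in *sdg26 aprf1* and 958.0 and 875.6 in *efl2 efl4*, with 873.6 and 739.9 in Col-0, 776.3 and 670.5 in *fld*, and 868.7 and 768.3 in *ld*. Both libraries of *efl2 efl4* were above all others, at the closest 875.6 against 873.6 in Col-0. Those of *sdg26 aprf1* were below those of Col-0 and *ld* and overlapped those of *fld*. Over all genes 30.3% of pairs of genotypes stood apart. The F test of edgeR over the 5 genotypes gave *ABH1* a *P* of 0.0349, and with the replicate block its adjusted *p* was 0.015 over the 5 genotypes and 0.0124 among the mutants. *ATXR7* passed in neither fit, and *ABH1* did not pass in edgeR without the block.

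By replicate number, 7 of these 40 genes passed in edgeR, where 29.2% of all genes did. *VIP5*, a further PAF1 complex gene, had 609.4 to 666.7 reads in replicate 1 and 746.8 to 772.4 in replicate 2, with no overlap across the 5 genotypes. *ELF5*, *UBC1*, AT5G48385 and AT5G27220 also rose in replicate 2 in the fit, and *ABH1* and *ATX1* fell. The rise was not seen in every genotype, as *UBC1* had 2297.4 and 2297.2 reads in *sdg26 aprf1*. AT5G27220 had only 17.0 to 39.0 reads, with 25.2 and 25.5 in *ld*. Per exon length the levels ran from 6.65 reads per 1000 bases for AT5G27220 to 2765.9 for AT3G22440 among the relatives, from 170.4 for *VIP3* to 256 for *VIP5* in the PAF1 complex, from 106.8 for *MBD9* to 1369.1 for *HTA9* among the SWR1 and H2A.Z genes, and from 55.2 for *ATX1* to 1371.3 for *UBC1* among the other activators.

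The genes whose pattern over the 10 libraries was most like that of *FRI* were AT4G06598, AT2G02148 and AT5G01430, with Pearson's *r* of 0.889, 0.876 and 0.872 on the log2 scale. No gene exceeded 0.9. The likeness lay in the difference between replicates of a genotype, for which *r* was 0.96, 0.99 and 0.92 over the 5 genotypes, and less in the means of the genotypes, for which it was 0.22, 0.39 and 0.37. The 10 libraries fall into 2 replicate sets. These 3 genes were picked for their *r* among 20057 genes, so the split of that *r* describes the matches and tests nothing. *FRI* itself was higher in replicate 2 in 3 genotypes and lower in 2, and in edgeR its adjusted *p* by replicate number was 0.513.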

How the data were processed

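RNA-seq was measured in 10 libraries, 2 per genotype. The deposited signal, normalized reads per gene, was made by the authors in 3 steps: HISAT2 placed the 50-base single-ended reads on TAIR10, featureCounts counted those on exons, and edgeR normalized them, with 1 table per mutant that also holds the 2 Col-0 libraries. The strand setting and the annotation are not given in the sources used here. Whole reads were recovered by dividing by the size of 1 read (99.0% to 100% of values within 0.1 of a whole number, 0 differences between the Col-0 reads of the tables). Replicates differed by more than sampling noise (chi-square over degrees of freedom 13.1 to 18.0).

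Mutants were tested against the Col-0 columns of the same table with limma (3.58.1, trend) on log2(normalized reads + 1), keeping genes whose mean reached 10. Fits over 10 libraries used edgeR (4.0.16, quasi-likelihood, TMM) on recovered reads, and values on 1 common scale used the same factors. All *p*-values are two-sided and adjusted by Benjamini-Hochberg over all genes tested. Alternatives were other pseudocounts, no filter, upper-quartile and RLE scaling, DESeq2 (1.42.0), all 10 libraries in limma, the replicate block and leaving out each library. The replicate numbers of the labels were taken as pairs because the differences between replicates correlated between all 10 pairs of genotypes (*r* of 0.37 to 0.611 over 20057 genes). The scripts were tested on simulated data.

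Gene positions and sequences came from TAIR10.1 (RefSeq), where all identifiers matched. Exon lengths are unions of annotated exons and may differ from those counted by the authors. The members and lists were chosen with earlier results of these data known. Named beside the members were *FLC*, listed genes with an unadjusted *P* under 0.05 in limma or an adjusted *p* under 0.05 over 10 libraries, the highest and lowest gene of each list, and the 3 genes most like *FRI*. *ABH1* is named also for its *P* under 0.05 in the F test, chosen after its values were seen. R 4.3.3 and Python 3.11.15 were used.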

Additional observations from a re-analysis of the deposited data

How the results depend on the processing

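The number of members called against Col-0, over the 5 genotypes and among the mutants was 0 under every alternative. The numbers called among all genes moved more. Without a filter, 1 gene was called in *fld* and 0 in *efl2 efl4*, where the reported values were 2 and 1. In *efl2 efl4* a pseudocount of 5 and edgeR each called 3. DESeq2 called 35 in *fld*, 52 in *ld*, 69 in *efl2 efl4*, 56 in *sdg26 aprf1*, 258 over the 5 genotypes, 112 for the mean of the mutants and 3454 by replicate number, where edgeR called 5864. Limma on all 10 libraries called 19, 21, 32 and 30 in the 4 mutants in the same order. With the replicate block the counts were 452, 676, 573 and 8, then 815 over the 5 genotypes, 395 for the mean and 542 among the mutants. Apart from AT4G14900, *ABH1* and *FLC* in *sdg26 aprf1*, the block changed no call of a listed gene. Leaving out each library in turn gave 0 to 1 genes in *fld*, 0 to 2 in *ld*, 0 to 2 in *efl2 efl4*, 0 in *sdg26 aprf1*, 16 to 27 over the 5 genotypes (50 reported), 2 to 18 for the mean (35 reported), 13 to 23 among the mutants (33 reported) and 4020 to 5795 by replicate number. The members called by replicate number were 3, 1 to 2 without each library, and 1 with DESeq2. Fits without a library of a mutant assume that the lone library varies like the others. The cause of these shifts was not tested.

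Of 750 alternative values of the members' log2FC, 701 moved by less than the spread between replicates or kept their call, and 54 had the other sign, all of genes that were not called. The largest log2FC against Col-0 in any alternative was -0.44, and 0.25 without leaving out a library. The members had 84 (*FRL1*) to 1838 (*VIP4*) reads in a library, so counting error is larger for *FRL1* than for *VIP4*.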
